A study of Mus musculus with 40 samples.

Results

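The clustered histone genes are the copies whose mouse symbols start with Hist1h, Hist2h, Hist3h or Hist4h. Taken by symbol from the protein-coding genes of the GENCODE M21 basic annotation (genome build GRCm38), they were 67 of 21951 genes. They comprised 6 copies for the linker histone H1, 18 for H2A, 18 for H2B, 12 for H3 and 13 for H4. By place, 54 copies lay in Hist1 on chromosome 13, 10 in Hist2 on chromosome 3, 2 in Hist3 on chromosome 11 and 1, Hist4h4, on chromosome 6. The Hist1 copies fell into 4 blocks more than 100000 bp apart, the first of 18 copies, the second of 5, the third of 29 and the last the pair Hist1h2ba and Hist1h2aa. A copy was counted as marked in a mouse when any base of a peak lay within 1000 bp of one of its annotated starts.

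Histone proteins package DNA, and most of the clustered genes are known as replication-dependent: they are transcribed mainly while a cell copies its DNA, they lack introns, and their transcripts end in a stem-loop in place of a poly(A) tail. H2A and H2B genes often sit head to head, sharing the stretch between their starts. Trimethylation of lysine 4 on histone H3 (H3K4me3) marks starts that are active or ready for use, acetylation of lysine 27 (H3K27ac) marks active promoters and enhancers, monomethylation of lysine 4 (H3K4me1) is best known from enhancers, and trimethylation of lysine 27 (H3K27me3) is the polycomb mark of silenced genes.

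The 4 marks were profiled by chromatin immunoprecipitation and sequencing (ChIP-seq). The tissue was the interscapular depot of brown fat (iBAT), which produces heat, from wild type C57BL/6N mice aged 20 weeks, in 8 samples that the labels number by mouse. Mice 1 and 2 were kept warm on normal chow diet (NCD), mice 4 and 5 were on NCD and spent 24 h at 4 °C (cold), mice 7 and 8 were warm and had eaten a high-fat diet (HFD) from 8 weeks of age on, over 12 weeks, and mice 10 and 11 had both HFD and cold. The data were 32 lists of peaks, 1 for each mark and mouse. The labels give each library 1 mouse number, whereas the methods speak of tissue from 2 mice in each histone experiment. Whether a number stands for 1 animal or for tissue pooled from 2 is thus not settled, and "mouse" below means a numbered sample. The tissue was dissociated and no sorting of cells is described, so a mark in all cells and a mark in a share of the cells cannot be told apart. The lists held 13517 to 24104 peaks for H3K4me3, 3224 to 40604 for H3K27ac, 12 to 27568 for H3K4me1 and 20 to 6428 for H3K27me3. Read depth was not given by the lists. The HFD mice 7 and 10 had the shortest H3K4me3 and H3K27ac lists. The brown adipocyte markers (Ucp1, Cidea, Dio2, Pparg, Adipoq, Fabp4 and Plin1) carried H3K4me3 in 8 of 8 mice for 7 of 7 genes. H3K4me3 was present in 4 or more mice at 0 of 6 leukocyte markers, at 1 of 4 skeletal muscle markers and at 3 of 3 endothelial markers.

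The sequences between or before starts are shown first, to place the copies that the results describe; no mark was tested against sequence. All were read from GRCm38.p6, 5′ to 3′, and capitals mark the TATA box TATAAA, the box CCAAT or the octamer ATTTGCAT on either strand, 3 motifs known from histone promoters. Hist2h2ac/Hist2h2be (chr3:96220881-96221118, plus strand), with an H2A and an H2B copy, was the pair most often covered by 1 peak of both H3K4me3 and H3K27ac. Hist1h2ak/Hist1h2bn (chr13:21753828-21754122, plus strand) was covered by 1 H3K4me3 peak in 7 mice. Hist1h2bf/Hist1h2ad (chr13:23574197-23574380, plus strand) had H3K4me3 in 7 mice and H3K27ac in none. Hist1h2ba/Hist1h2aa (chr13:23934157-23934436, plus strand, between the RefSeq starts) had no peak of any mark. Hist1h2bq/Hist1h2ao (chr13:21810198-21810464, plus strand) lies in a stretch that the genome holds more than once.
Hist2h2ac/Hist2h2be: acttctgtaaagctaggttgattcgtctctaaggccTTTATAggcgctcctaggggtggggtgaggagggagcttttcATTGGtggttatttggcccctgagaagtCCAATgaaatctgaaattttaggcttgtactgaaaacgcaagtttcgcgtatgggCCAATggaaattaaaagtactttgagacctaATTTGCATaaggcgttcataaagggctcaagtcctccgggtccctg
Hist1h2ak/Hist1h2bn: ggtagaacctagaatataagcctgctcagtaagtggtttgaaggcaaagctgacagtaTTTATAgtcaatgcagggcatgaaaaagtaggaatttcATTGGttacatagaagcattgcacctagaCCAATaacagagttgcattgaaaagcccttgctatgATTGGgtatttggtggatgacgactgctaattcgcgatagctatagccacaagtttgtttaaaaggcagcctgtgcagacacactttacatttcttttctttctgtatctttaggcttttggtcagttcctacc
Hist1h2bf/Hist1h2ad: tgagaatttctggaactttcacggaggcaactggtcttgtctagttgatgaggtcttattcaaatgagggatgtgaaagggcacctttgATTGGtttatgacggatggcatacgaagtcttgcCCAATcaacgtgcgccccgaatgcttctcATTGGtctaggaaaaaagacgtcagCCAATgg
Hist1h2ba/Hist1h2aa: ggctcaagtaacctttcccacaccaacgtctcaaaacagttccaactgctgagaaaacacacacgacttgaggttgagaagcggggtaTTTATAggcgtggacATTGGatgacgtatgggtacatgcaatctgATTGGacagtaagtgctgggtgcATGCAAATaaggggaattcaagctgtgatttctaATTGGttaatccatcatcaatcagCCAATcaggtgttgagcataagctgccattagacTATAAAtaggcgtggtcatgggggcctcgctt
Hist1h2bq/Hist1h2ao: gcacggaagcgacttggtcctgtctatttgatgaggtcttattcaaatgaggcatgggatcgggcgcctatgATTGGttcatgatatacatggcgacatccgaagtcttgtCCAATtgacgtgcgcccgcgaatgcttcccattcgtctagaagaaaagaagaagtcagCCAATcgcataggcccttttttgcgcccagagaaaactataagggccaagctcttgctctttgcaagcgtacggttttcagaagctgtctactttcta

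For single copies, the 250 bases before the annotated start are given. Hist1h4j (chr13:21734814-21735063, plus strand), a copy for H4, carried H3K4me3 in 8 mice and H3K27ac in none. Hist1h1c (chr13:23738558-23738807, plus strand) is an H1 copy known to make polyadenylated as well as stem-loop transcripts. Hist1h1t (chr13:23695564-23695813, plus strand) is the testis copy of H1.
Hist1h4j: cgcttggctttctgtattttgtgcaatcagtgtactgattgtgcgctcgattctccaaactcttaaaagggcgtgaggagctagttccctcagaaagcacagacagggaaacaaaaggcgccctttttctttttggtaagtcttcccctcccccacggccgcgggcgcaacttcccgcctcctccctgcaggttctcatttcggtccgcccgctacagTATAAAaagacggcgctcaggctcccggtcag
Hist1h1c: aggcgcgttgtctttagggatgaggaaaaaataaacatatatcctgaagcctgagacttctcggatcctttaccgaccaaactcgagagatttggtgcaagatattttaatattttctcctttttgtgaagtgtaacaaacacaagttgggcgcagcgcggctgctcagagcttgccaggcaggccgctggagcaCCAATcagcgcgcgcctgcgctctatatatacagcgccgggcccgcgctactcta
Hist1h1t: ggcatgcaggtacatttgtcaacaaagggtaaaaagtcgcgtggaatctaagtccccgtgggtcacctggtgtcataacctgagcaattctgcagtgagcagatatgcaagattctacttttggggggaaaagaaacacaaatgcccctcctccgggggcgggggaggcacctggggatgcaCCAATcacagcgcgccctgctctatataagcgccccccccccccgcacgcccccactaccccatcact

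H3K4me3 lay at nearly every copy. It was present at 64 of 67 copies in mice 1, 2, 4, 5 and 11, at 63 copies in mice 8 and 10, and at 31 copies in mouse 7. In percent, 94.0 to 95.5 of the copies were marked in 7 of the mice and 46.3 in mouse 7, whereas the values for all protein-coding genes were 54.4 to 63.4 and 43.6. Mouse 7 was thus far below the other mice for the histone copies, and its H3K4me3 list was the shortest. Over the mice, 31 of 67 copies carried H3K4me3 in 8 of 8 mice (all genes 43.3%), and 63 copies in 7 or 8 mice (all genes 53.8%). In 1 or more mice it was 64 copies (all genes 64.9%). Without mouse 7, the count in every mouse was 63 in place of 31. The 32 copies that carried H3K4me3 in every mouse but mouse 7 lay in Hist1 apart from Hist2h3b and Hist3h2ba.

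**Figure D1:**
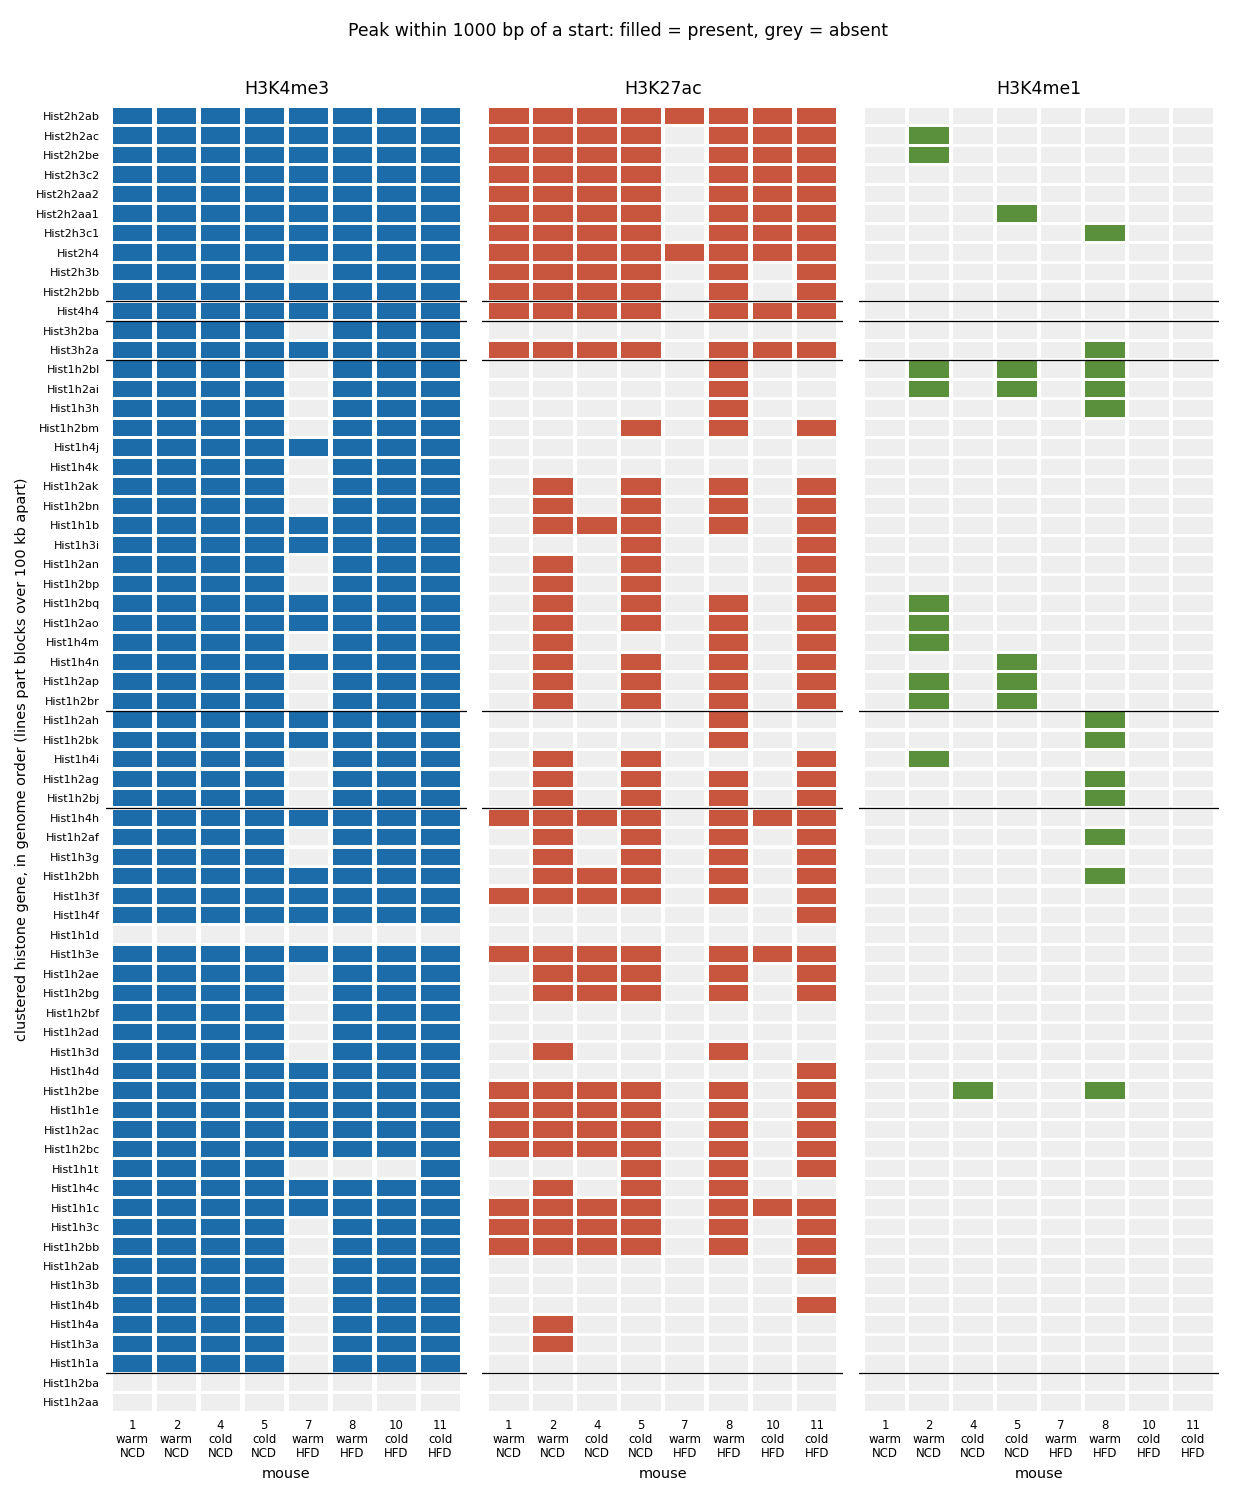
Each line is 1 of the 67 clustered histone genes in genome order, each column a mouse with its temperature and diet, and a filled cell is a peak of H3K4me3 (left), H3K27ac (middle) or H3K4me1 (right) within 1000 bp of a start. H3K4me3 fills 64 lines apart from gaps that lie mostly in mouse 7, H3K27ac fills the 10 Hist2 lines in most mice and the Hist1 lines unevenly, and H3K4me1 is sparse. H3K27me3, which had no filled cell, is not drawn.

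The 3 copies with no H3K4me3 peak were Hist1h1d, Hist1h2ba and Hist1h2aa. Hist1h1d encodes a somatic H1, and its only GENCODE start, at chr13:23553262-23553262, lies 1770 bp upstream of the RefSeq start of the same gene. Within 1000 bp of the RefSeq start, Hist1h1d carried H3K4me3 in 8 mice and H3K27ac in 7. Its H3K4me3 peak spanned chr13:23554890-23556499 in mouse 5, with a fold enrichment of 83.5. Fold enrichment is the ratio of immunoprecipitated signal to input at the peak summit, as the peak caller wrote it. Across the mice the fold of this peak ran from 3.19 in mouse 7 to 83.5 in mouse 5. Folds are not on a common scale between lists. For this peak, 22.7 in mouse 1 stood at the 60.8 percentile of fold within its list, and 11.9 in mouse 10 at the 69.8 percentile. With RefSeq starts for all copies, 65 of 67 carried H3K4me3 in 1 or more mice, 32 in every mouse, and 58 carried H3K27ac in 1 or more. Hist1h1d was the only copy whose counts differed between the GENCODE and RefSeq starts.

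Hist1h2ba and Hist1h2aa are an H2B and an H2A known from male germ cells, and neither had a peak of any mark in any of the 32 lists. They stand head to head, apart from the other Hist1 copies. The nearest H3K4me3 peak to the start of Hist1h2aa was 169998 bp away in mouse 11, at Hist1h1a, and 193740 bp away in mouse 7. Their shared stretch, printed above, holds TATAAA on 2 sites, CCAAT on 4 and the octamer on 1, counted on both strands. The third testis copy, Hist1h1t, lies among marked neighbours in the third Hist1 block. It carried H3K4me3 in mice 1, 2, 4, 5 and 11, with folds of 6.24, 4.82, 17.7, 10.5 and 5.86. These were low within each list except in mouse 4, where the peak stood at the 67.2 percentile of fold. Its peaks were 335 to 631 bp wide, and H3K27ac was present in mice 5, 8 and 11.

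H3K27ac was less even. It was present at 22, 45, 26, 44, 2, 47, 13 and 48 of 67 copies in mice 1, 2, 4, 5, 7, 8, 10 and 11. In percent of the copies the values ran from 2.99 in mouse 7 to 71.6 in mouse 11, and for all genes from 3.92 to 44.9 in the same mice. Over the mice, 2 copies, Hist2h2ab and Hist2h4, had H3K27ac in 8 of 8 (all genes 3.74%), and 13 had it in 7 or 8 (all genes 17.1%). In 4 or more mice it was 37 copies (all genes 39.9%), and in 1 or more 57 copies (all genes 49.7%). Without mouse 7 the count in every mouse was 13, and without mice 7 and 10 it was 22. In each of the 4 conditions, the mouse with the lower number had fewer copies with H3K27ac than its partner, and also a smaller share of all genes: 33.9% against 44.3% in warm NCD, 32.6% against 44.4% in cold NCD, 3.92% against 39.7% in warm HFD and 19.0% against 44.9% in cold HFD. The labels name no batch that the mouse numbers stand for, and the part of list length in these counts was not tested.

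**Figure D2:**
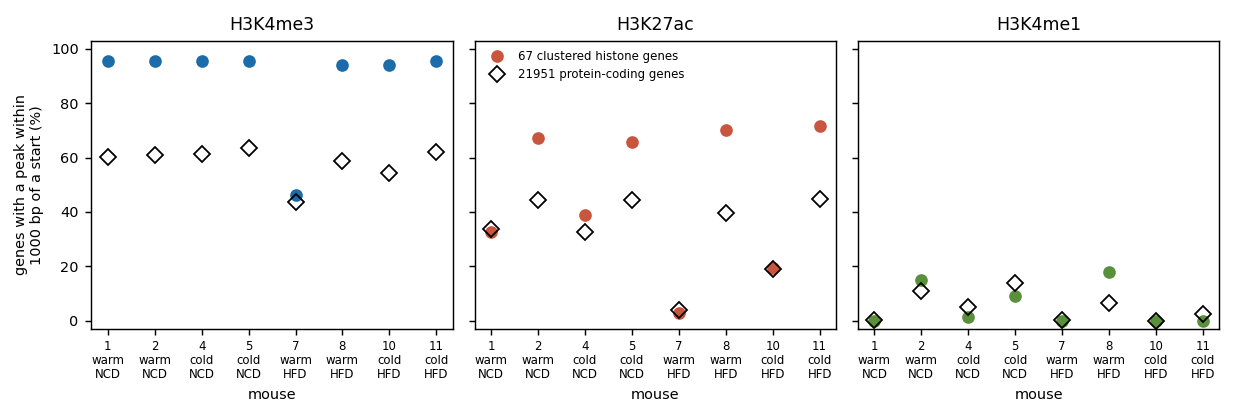
Percent of the 67 clustered histone genes (filled circles) and of all 21951 protein-coding genes (open diamonds) with a peak within 1000 bp of a start, for each mouse. The histone copies lie above all genes for H3K4me3 in every mouse, by the smallest margin in mouse 7 (46.3 against 43.6), and for H3K27ac in mice 2, 4, 5, 8 and 11 clearly, with mice 1, 7 and 10 near the level of all genes. For H3K4me1 both lie under 20%.

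The Hist2 copies carried the most H3K27ac. All 10, within chr3:96219865-96270132, had it in 6 to 8 mice, and 10 of 10 were marked in mice 1, 2, 4, 5, 8 and 11, with 8 in mouse 10 and 2 in mouse 7. In the third Hist1 block (29 copies, chr13:23531050-23764406) H3K27ac was at 10, 19, 13, 17, 0, 18, 3 and 20 copies in mice 1, 2, 4, 5, 7, 8, 10 and 11. In the first Hist1 block (18 copies, chr13:21715763-21837530) it was at 0, 11, 1, 12, 0, 13, 0 and 13 copies in the same order. The first block was thus nearly free of H3K27ac peaks in mice 1, 4, 7 and 10 and held them at over 10 copies in the other mice. Mice 4 and 5 had H3K27ac lists of 30544 and 30495 peaks, of which 8559 and 11186 lay at start sites, and 1 and 12 copies of the first block with H3K27ac. In the second block (5 copies, chr13:22035164-22043676) the mice with H3K27ac were 2, 5, 8 and 11, at 3 or 4 copies.

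By the median over the mice, the height of H3K27ac peaks was also highest in Hist2. Each peak was given the percentile of its fold within its own list, and for each copy the median over the mice with a peak was taken. The lists differ in length, and copies of the first Hist1 block have their H3K27ac peaks almost wholly in mice 2, 5, 8 and 11, so these values describe each block and are not on a common scale. For H3K27ac the median copy stood at 85.9 in Hist2, 43.7 in the first, 35.7 in the second and 47.1 in the third Hist1 block. For H3K4me3 the corresponding values were 72.7, 61.2, 59.2 and 60.0. The H3K27ac order of the blocks did not hold in every mouse. In mouse 4 most Hist2 copies stood low, with Hist2h2ab at 9.7, Hist2h3c2 at 1.5 and Hist2h2bb at 0.85. Hist2h2aa1 at 57.8 and Hist2h4 at 96.9 were higher there. In the third Hist1 block, the same mouse had Hist1h1c at 93.6 and Hist1h3c at 2.5. Hist4h4, alone on chromosome 6, stood at 79.2 for H3K4me3 and 82.4 for H3K27ac. In Hist3, Hist3h2a stood at 83.1 for H3K4me3 and its neighbour Hist3h2ba at 31.3. Hist3h2a had H3K27ac in 7 mice and Hist3h2ba in none, and these 2 neighbours, 1 for H2A and 1 for H2B, had H3K4me3 in 8 and 7 mice.

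**Figure D3:**
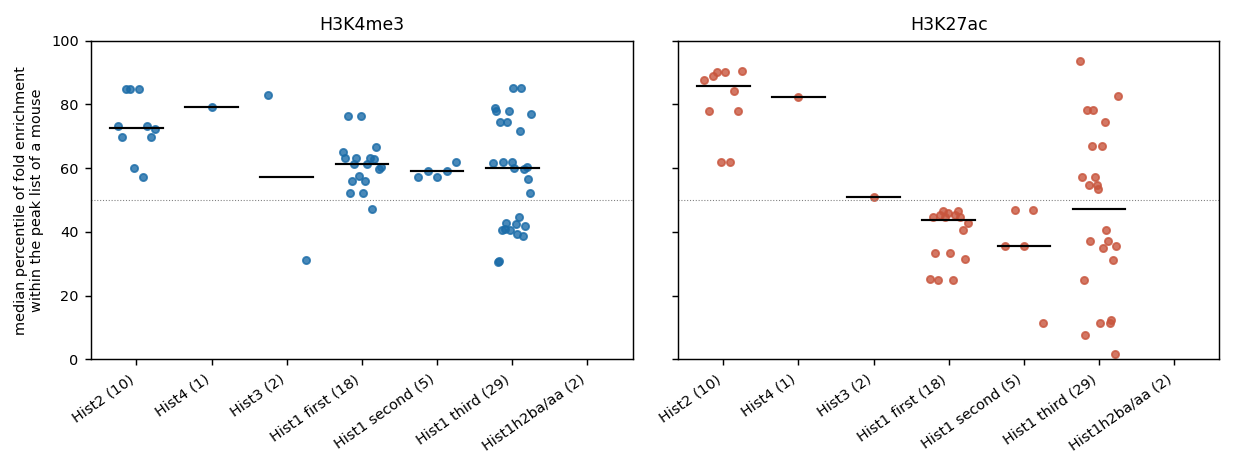
Median percentile of fold enrichment (vertical axis, 0 to 100) of the highest peak at each clustered histone gene, over the mice in which the gene had a peak, by genomic block with the number of genes in brackets; the black bar is the median gene. Hist2 and Hist4h4 lie high for both marks, H3K27ac in the first and second Hist1 blocks lies below 50, and the pair Hist1h2ba and Hist1h2aa has no point.

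Among the H1 copies, Hist1h1c had the highest median percentile, 78.9 for H3K4me3 in 8 mice and 93.6 for H3K27ac in 7. The H3K27ac fold of Hist1h1c was 6.39 at the lowest in mouse 10, 14.7 at the median and 17.4 at the highest. The H3K4me3 fold of Hist1h1c, on the scale of each list, ran from 3.16 in mouse 7 over a median of 22.5 to 129 in mouse 5. Hist1h1e, another somatic H1, carried H3K4me3 in 8 mice and H3K27ac in 6, at median percentiles of 78.0 and 57.2. Hist1h1b carried H3K4me3 in 8 mice at 65.0 and H3K27ac in 5 at 25.3. Hist1h1a, the H1 copy at the end of the third Hist1 block, carried H3K4me3 in 7 mice and H3K27ac in none.

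For H2A, the leading copies were Hist2h2ab and Hist2h2ac, both at a median H3K4me3 percentile of 85.0, and Hist3h2a at 83.1. Hist2h2ab and Hist2h2ac are neighbours and shared 1 H3K4me3 peak in 7 mice. The fold of Hist2h2ab, on the scale of each list, was 6.43 at the lowest in mouse 7, 34.5 at the median and 108 at the highest in mouse 5. For H2B, Hist1h2bh and Hist2h2be stood at 85.0 and Hist1h2be at 78.0. In every mouse Hist1h2bh had the same H3K4me3 fold as the H3 copy Hist1h3f, and Hist2h2be the same as Hist2h2ac. Hist1h2be had the same as the H1 copy Hist1h1e, with which it shared 1 peak over both starts in 7 mice. Such equal values in different classes are thus not separate results. Hist2h2be and Hist1h2bc are H2B copies known to make polyadenylated transcripts, and they carried H3K4me3 in 8 mice and H3K27ac in 7 and 6 mice. By class, 17 of 18 copies of both H2A and H2B carried H3K4me3 in 7 or 8 mice, and 12 and 11 carried H3K27ac in 4 or more.

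For H3, the leading copies were Hist1h3f at 85.0, Hist2h3c1 at 73.3 and Hist1h3e at 71.7, and 12 of 12 H3 copies carried H3K4me3 in 7 or 8 mice. H3K27ac was present in 4 or more mice at 7 of the 12. For H4, Hist4h4 stood at 79.2, Hist1h4h at 77.0 and Hist2h4 at 72.2, and 13 of 13 copies carried H3K4me3 in 7 or 8 mice. H3K27ac was present in 4 or more mice at 4 of the 13 H4 copies, the lowest share of the 4 core histone classes, and the median H4 copy had it in 3 mice. The H4 copies are known to encode the same or nearly the same protein. The H3K27ac counts among them ran from 0 mice at Hist1h4j and Hist1h4k to 8 mice at Hist2h4. At Hist2h4 the H3K27ac fold was 6.48 at the lowest in mouse 8, 10.9 at the median and 15.9 at the highest in mouse 4.

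The 10 copies with no H3K27ac in any mouse were Hist3h2ba, Hist1h4j, Hist1h4k, Hist1h1d, Hist1h2bf, Hist1h2ad, Hist1h3b, Hist1h1a, Hist1h2ba and Hist1h2aa. Of these, 7 carried H3K4me3 in 7 or 8 mice, and Hist1h1d, as given above, had both marks at its RefSeq start. A further 11 copies carried H3K4me3 in 7 or 8 mice and H3K27ac in 1.

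H3K4me1 was rare at the copies, which were marked in 0, 10, 1, 6, 0, 12, 0 and 0 cases in mice 1, 2, 4, 5, 7, 8, 10 and 11. In all, 22 copies had it in 1 or more mice (all genes 22.5%), and 0 of these peaks covered a start. Hist1h2bl and Hist1h2ai, a head-to-head pair at the edge of the first Hist1 block, had it in mice 2, 5 and 8. H3K27me3 was present at 0 of 67 copies in any mouse (all genes 6.94%). In mouse 5, whose list was the longest by far, 6.56% of all genes had it, and the nearest H3K27me3 peak to a histone start was 20573 bp from Hist1h2ah. Over the lists the shortest distance was 11167 bp, to Hist4h4 in mouse 11. In the other mice 0 to 1.54% of all genes had H3K27me3, so those lists say little about any single gene.

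The marks were compared gene by gene with Fisher's exact test of presence in 8 against 8 libraries, 2-sided, adjusted over all 21951 genes after Benjamini and Hochberg. H3K4me3 was present in more mice than H3K27ac at 11 copies (all genes 7.94%) and in fewer at 0 (all genes 0.0501%). The 11 were Hist1h4j, Hist1h4k, Hist1h4f, Hist1h4d, Hist1h2ah, Hist1h2bk, Hist1h2bf, Hist1h2ad, Hist1h3b, Hist1h1a and Hist3h2ba. The adjusted Fisher's exact p was 0.00698 for Hist1h4j, with 8 mice against 0, and 0.0175 for the others, with 7 against 0 or 8 against 1. The count rested on single libraries: it was 1 without mouse 1, 2, 4 or 5, 3 without mouse 8 or 11, 11 without mouse 10 and 18 without mouse 7, and 7 without mice 7 and 10. The marks came from samples with the same mouse numbers, and within numbers an exact sign-flip test called 0 copies, with a smallest adjusted p of 0.196. At an unadjusted sign-flip p under 0.05, 19 copies had H3K4me3 in more mice (all genes 14.3%). The smallest p that this test allows with 8 pairs is 0.0078125, so the lost calls are no measure of a weaker difference. The same comparison of H3K27me3 with H3K27ac called 22 copies (all genes 27.4%). Since H3K27me3 was at 0 at every copy, these are the copies with H3K27ac in 6 or more mice, and the count says nothing further about H3K27me3. It was 13 without any single one of mice 1, 2, 4, 5, 8 and 11.

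Many copies shared 1 H3K4me3 domain. In mice 1, 2, 4, 5, 8 and 11, 13 to 18 of the 44 to 52 peaks at histone starts covered 2 or more starts, in mouse 10 it was 5 of 56, and in mouse 7 it was 0 of 27. In percent of the peaks at histone starts this was 25.5 to 40.9 in the former 6 mice, 8.93 in mouse 10 and 0 in mouse 7. Of all start-site peaks, 7.66% to 9.06%, 6.57% and 2.94% covered the starts of 2 or more genes, so the share was lower at the copies in mouse 7. Across the mice 41 copies lay in such a shared peak in 1 or more mice, in 20 different sets. When the peaks of all mice were merged, H3K4me3 formed 42 regions over the histone starts, of which 19 covered 2 or more starts. The widest peak was 5895 bp, in mouse 11, and covered Hist1h4h, Hist1h2af and Hist1h3g, starts that no single peak covered together in any other mouse. The set of Hist2h2ab, Hist2h2ac and Hist2h2be was covered by 1 H3K4me3 peak of 2594 to 3423 bp in 7 mice, and by 1 H3K27ac peak of 3139 to 3408 bp in mice 2, 4, 5 and 11.

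The head-to-head pairs were 13 in number, with 176 to 660 bp between starts. A single H3K4me3 peak covered both starts in 4 or more mice at 11 of the 13 pairs (84.6%), and at 87.9% of the 742 head-to-head pairs within 1000 bp among all protein-coding genes. In 7 or 8 mice it was 3 of 13 (23.1%), against 61.7% of all pairs. The 3 pairs were Hist1h2bl/Hist1h2ai, Hist1h2ak/Hist1h2bn and Hist2h2ac/Hist2h2be. For H3K27ac a single peak covered both starts in 4 or more mice at 1 of 13 pairs, Hist2h2ac/Hist2h2be, and at 21.2% of all pairs. The median distance between starts was 268 bp for the histone pairs and 128.5 bp for all pairs. Hist1h2bh/Hist1h3f, the pair of an H2B and an H3 copy with the widest gap, was covered in 3 mice although both copies were marked in 8.

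**Figure D4:**
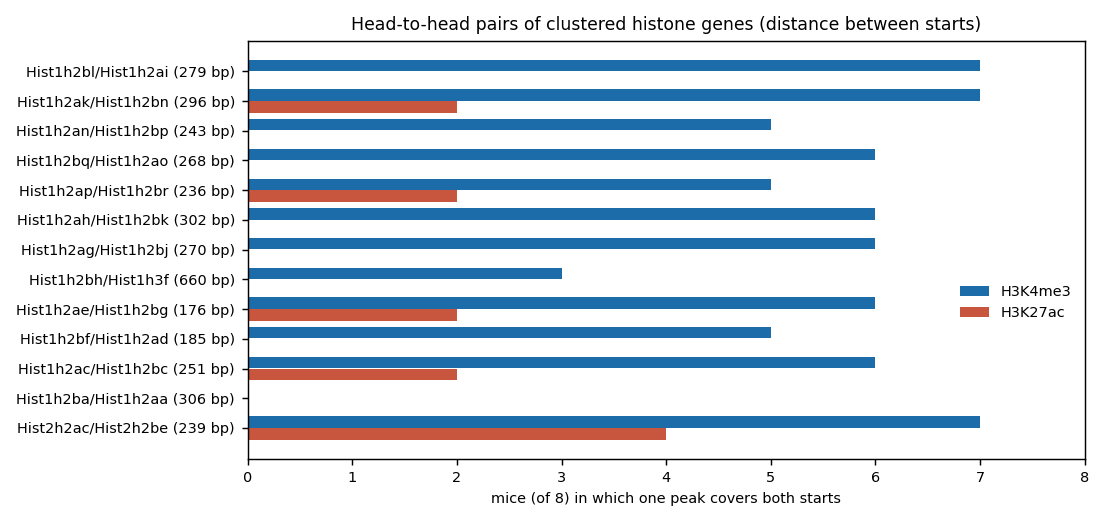
For each of the 13 head-to-head pairs of clustered histone genes, with the distance between starts in brackets, the bars give the number of mice out of 8 in which 1 peak covers both starts, blue for H3K4me3 and red for H3K27ac. H3K4me3 reaches 7 mice at 3 pairs and 0 at Hist1h2ba/Hist1h2aa; H3K27ac reaches 4 mice at Hist2h2ac/Hist2h2be and 0 to 2 elsewhere.

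The H3K4me3 peaks at the copies were lower and narrower than all start-site peaks in most mice, by their medians. The median width of the peaks at histone starts was 537 bp in mouse 7 and 665 to 1681.5 bp in the other mice, and that of all start-site peaks 634 and 1021 to 1608 bp. Within mice the histone peaks were the narrower in 7 of 8, with mouse 11 the exception (1681.5 and 1608 bp). The median fold percentile was 33.9 to 64.6 for peaks at histone starts and 49.7 to 69.9 for all start-site peaks, lower for the histone peaks in 7 of 8 mice, with mouse 10 the exception (57.4 and 56.0). Summits lay inside the gene less often at the copies than at all marked genes, a description without a test. Many copies are short, such as Hist1h4k at 312 bp and Hist1h2bl at 381 bp, though Hist1h2be spans 37455 bp. A summit downstream of the start can thus fall past the end of a short gene, and gene length was not taken into account. In the H3K4me3 lists, the summit of the highest peak was upstream of the nearest start at 32.3% to 42.9% of the marked copies and at 13.7% to 22.8% of all marked genes. For 26 copies another histone start lay within 1000 bp, so the highest peak of such a copy could be that of its neighbour. The same can hold for neighbours with starts further apart. Hist2h3c2 and Hist2h2aa2, and likewise Hist1h2be and Hist1h1e, had the same H3K4me3 fold in every mouse.

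Several copies share sequence that short reads cannot tell apart. The share of distinct stretches of 31 bases that occur once in the GRCm38.p6 chromosomes was 75.4% for the median copy's windows of 1000 bp on either side of its starts. It was 0 for Hist1h2ao, Hist1h2bq, Hist1h2ap and Hist1h2br. The windows of Hist1h2ao and Hist1h2ap were identical over 1971 aligned bases, and those of Hist1h2bq and Hist1h2br over 1999. The share was 4.06% and 4.01% for Hist1h4m and Hist1h4n, 20.3% and 19.3% for Hist2h3c2 and Hist2h3c1, and 40.5% and 43.2% for Hist2h2aa2 and Hist2h2aa1. All 10 copies had H3K4me3 in 7 or 8 mice. How reads with several best places were assigned is not known here, so peaks at Hist1h2ao, Hist1h2ap, Hist1h2bq and Hist1h2br cannot be assigned to a certain copy, and those at the other 6 in part. The pair Hist1h2bq/Hist1h2ao had H3K4me3 folds of 20.5, 18.3, 20.4, 55.3, 3.42, 7.88, 11.4 and 14.5 in mice 1, 2, 4, 5, 7, 8, 10 and 11. The identical pair Hist1h2ap/Hist1h2br had 23.0, 22.8, 26.7, 59.5, 7.15, 11.8 and 13.3 in the same mice but mouse 7, in which it had no peak.

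The 3 motifs were counted in the RefSeq promoters, 250 bases before to 50 after the start, which were at hand for 62 of the 67 copies; Hist2h2be, Hist2h4, Hist1h3f, Hist1h2bc and Hist1h3a were not matched. TATAAA was held by 56.5% of the copies and by 15.7% of all 27025 genes with a promoter, CCAAT by 85.5% and 41.1%, and the octamer ATTTGCAT by 22.6% and 1.97%, each on either strand. CCAAT was in the promoters of all 6 H1, 18 H2A, 16 H2B and 10 H3 copies matched, and in 3 of 12 H4 copies. The octamer was in 7 of 18 H2A and 7 of 16 H2B copies and in none of the other classes, and since paired genes share a promoter stretch, these counts overlap. Among the copies with H3K27ac in 4 or more mice, 12 of 33 held TATAAA (36.4%), and among those with H3K27ac in fewer mice 23 of 29 (79.3%). For this split H3K27ac was read at the GENCODE starts and the motifs at RefSeq starts. Hist1h1d, which held TATAAA, thus fell in the latter group, although it had H3K27ac in 7 mice at its RefSeq start. The split was made after the counts were seen, and these figures are descriptions of letters in a window.

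Cold and HFD were then compared with warm and NCD. No copy had H3K4me3 or H3K27ac in all mice of one arm and in none of the other. For H3K4me3 the share of all genes that did was 0.0228% in cold alone, 0.00456% in warm alone, 0.0364% in HFD alone and 0.118% in NCD alone. For H3K27ac these shares were 0.0592%, 0%, 0% and 0.0501%. A difference of 3 or 4 of 4 mice between arms was found at 1 copy, Hist1h1t, for H3K4me3 by diet, with 4 NCD mice and 1 HFD mouse (all genes 1.5%; Fisher's exact p = 0.143, adjusted p = 1.0). Without mouse 11 it was in every NCD mouse and no HFD mouse, and the share of all genes with that pattern was not counted. The HFD mice 7, 8 and 10, which lacked the peak, had the shortest H3K4me3 lists, of 13517, 19079 and 17195 peaks. The other lists held 20304 or more, so diet and list length cannot be told apart at this copy. By temperature there was none for H3K4me3 (all genes 0.579%), and for H3K27ac none by temperature (all genes 0.515%) or diet (all genes 0.861%). The smallest p that 4 against 4 mice allow is 0.0286, which cannot pass adjustment over 21951 genes, and 0 genes were called; 0 copies had an unadjusted p under 0.05.

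Fold enrichment was compared at the genes with a peak in all 8 mice, on a log2 scale after quantile normalisation, with limma and additive terms for temperature and diet, adjusted over all genes tested. For H3K4me3 9499 genes were tested, among them 31 copies, and for H3K27ac 821 genes with 2 copies. No gene was called in any of the 4 comparisons (0% of genes tested), and in limma 2 of the 31 copies had an unadjusted p under 0.05 for cold and 0 for HFD, against 513 and 536 of all genes. With cold, the median log2 change of H3K4me3 at the copies was 0.15, from -0.32 to 0.81, and that of all genes 0.01. It was above 0 at 22 of 31 copies and at 51% of all genes; paired copies share their value. With HFD the median was -0.03 at the copies and -0.01 over all genes. For H3K27ac, the log2 change with cold was -0.02 at Hist2h2ab and 0.26 at Hist2h4, and with HFD 0.41 and 0.04, each with a standard error of 0.31. The smallest adjusted limma p of these was 0.763.

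By class, the 8 H4 copies tested all had a log2 change of H3K4me3 above 0 with cold, from 0.32 to 0.81 with a median of 0.45, a description chosen after the values were seen. The direction was the same at 8 of 8 under median centring and, without mice 7 and 10, at 13 of 13 H4 copies, of which 0 were called. Both settings reuse the same samples, and the share of all genes above 0 was not counted under them. With HFD, 1 of the 8 H4 copies was above 0, and 2 of 13 without mice 7 and 10. With cold, of the H3 copies 1 of 5 was above 0, of the H1 copies 1 of 3, of the H2A copies 7 of 8 and of the H2B copies 5 of 7. Under median centring these counts were 1 of 5, 0 of 3, 6 of 8 and 3 of 7. Hist2h4 had normalised log2 folds of 5.00, 4.53, 4.58 and 4.69 in the cold mice 4, 5, 10 and 11 and 4.20, 4.02, 4.00 and 3.33 in the warm mice 1, 2, 7 and 8. The arms did not overlap, with a log2 change of 0.81, a standard error of 0.328 and an adjusted limma p of 0.841. Hist1h4j, named for its values, had 4.36, 4.30, 4.69 and 3.97 in the cold and 3.75, 3.50, 3.43 and 3.69 in the warm mice, again without overlap, with an adjusted limma p of 0.895. They were 2 of 31 copies with all cold above all warm mice (all genes 1.53%), and 0 copies had the reverse (all genes 1.17%).

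**Figure D5:**
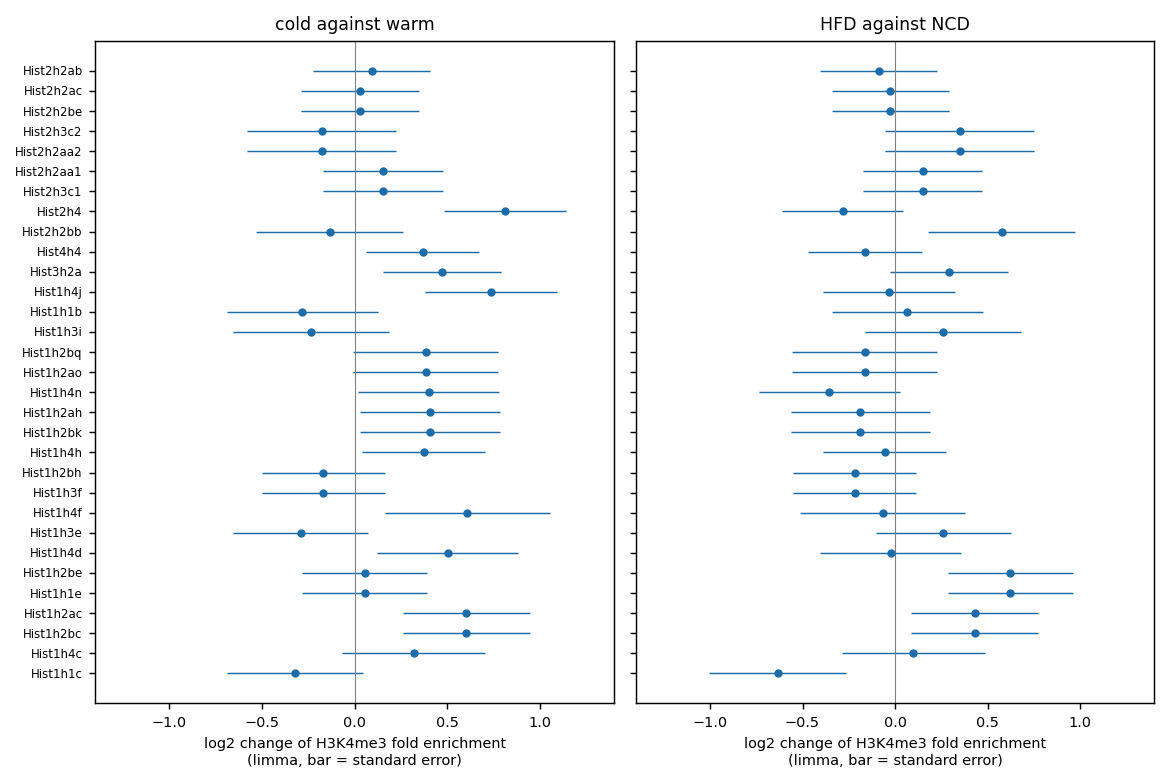
Log2 change of H3K4me3 fold enrichment with cold (left) and HFD (right) at the 31 clustered histone genes with a peak in all 8 mice, in genome order; points are limma estimates and bars 1 standard error. With cold the points run from -0.32 to 0.81 and the H4 copies lie above 0; with HFD they run from -0.63 to 0.62; no point passed adjustment.

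Genes with related roles were read in the same way. The 11 replication-independent histone variants are known for transcription that is not limited to S phase. They carried H3K4me3 in 7 or 8 mice at 10 genes (53.8% of all genes) and H3K27ac in 4 or more at 7 (39.9% of all genes). H3f3a and H3f3b, which encode the replacement histone of class H3, both carried H3K4me3 in 8 mice, with H3K27ac in 6 mice for the former and 7 for the latter. Of 9 factors for histone gene transcription and 3′ end processing, 9 carried H3K4me3 in 7 or 8 mice and 6 H3K27ac in 4 or more. At Npat, the coactivator of the clustered genes, H3K4me3 was found in 8 mice and H3K27ac in 2. At Slbp, which binds the stem-loop, both were found in 7 mice. Of 18 genes of S phase and mitosis, 16 carried H3K4me3 in 7 or 8 mice, 5 carried H3K27ac in 4 or more and 9 had no H3K27ac in any mouse, as had 50.3% of all genes. Mki67, a marker of cycling cells, had H3K4me3 in 7 mice and H3K27ac in 0. H3K27me3 was at 1 of the 11 variants, H2afy2 in 1 mouse, and at 0 genes of the other 2 lists.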

How the data were processed

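Peak lists of 4 marks from 8 numbered samples were analysed (32 lists; the 8 input libraries entered only as the background of peak calling). The authors trimmed reads with cutadapt, aligned them to GRCm38 with Bowtie2 and called peaks with MACS2 against the matching input (control flag); for tool versions, other settings, read depth and the handling of reads with several best places, no source used here gives a value. The deposited lists give each peak a fold enrichment (a ratio to input), −log10 p and q values, and a score, and hold no reads. Peaks were called in each library, so presence could be counted for each mouse, while the unlike lengths of the lists limit comparison between mice. The smallest −log10 q was 1.3.

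The members and lists of genes were chosen with earlier results of these data known. A gene was marked where a peak lay within 1000 bp of a protein-coding start in GENCODE M21 basic. Where several peaks did, the one with the highest fold was used. Presence was compared with Fisher's exact test, 2-sided, and fold enrichment with limma 3.58.1 (R 4.3.3) on quantile-normalised log2 values at genes marked in all 8 mice, both adjusted after Benjamini and Hochberg over all genes tested at 0.05. Libraries of all marks carry the same 8 mouse numbers in the labels, so marks were also compared within numbers by an exact sign-flip test. The methods speak of tissue from 2 mice in each experiment, so a number may stand for pooled tissue, which n then counts as 1. Samples of different conditions are not paired. With 2 samples in each condition, limma p-values rest on the spread between these samples and on the variance of the other genes tested, towards which each gene is drawn. The Fisher and sign-flip tests use counts of presence and measure no spread. Tests were checked on simulated data with libraries drawn independently, so the check does not cover differences between whole lists, such as that of mouse 7. Members named with values were the leading copies of each class, those with most H3K27ac, those without peaks, testis copies, copies with polyadenylated transcripts, Hist3 and Hist4 copies, and copies whose counts differed by 3 or more mice between arms; others are named as parts of counted sets. Promoter sequences and RefSeq starts came from RefSeq (GRCm38.p6). The sequence before 1 further start is not reported here. Python 3.11.15, pandas 2.3.3 and scipy 1.17.1 were used. Alternatives were other distances (500 and 2000 bp), a peak over the start itself, summits, a −log10 q of at least 5, other scalings, RefSeq starts, and leaving out mice. RefSeq starts and leaving out mice 7 and 10 together were added after the data were seen.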

Additional observations from a re-analysis of the deposited data

Results flagged for a closer look

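Among 47 groups of values over the mice, 9 held a mouse set apart from the others by a gap large against the range of the group. Chance gives about 1 in 20 such groups, and several of the 9 are the same peak. Mouse 7 had 31 copies with H3K4me3 and 27 H3K4me3 peaks at the copies, the lowest of the 8 mice in both. Mouse 11 had the widest H3K4me3 peak at the copies, 5895 bp over Hist1h4h, Hist1h2af and Hist1h3g. In mouse 10 the H3K4me3 fold percentile was 53.4 at Hist2h2ac and Hist2h2be, which share a peak, and 48.1 at Hist1h2bh and Hist1h3f, the lowest of the 8 mice. In mouse 7 the percentile of Hist2h3c1 was 40.0. For H3K27ac, Hist1h1c stood at 70.1 in mouse 10, the lowest of its 7 mice with a peak.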

How the results depend on the processing

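In all, 44 results were recomputed. Of 322 values under other settings 298 kept their side of the threshold or stayed within 1.5 times the reported count, as did 335 of 352 with 1 mouse left out. Many of the 44 results were counts of 0 as reported, so these totals say little about the counts above 0. With a peak over the start itself, 11 copies had H3K4me3 in every mouse, 0 had H3K27ac in every mouse, 31 in any and 36 in none, 0 had H3K4me1, 26 had H3K4me3 in more mice than H3K27ac and 1 had H3K27me3 in fewer. With a −log10 q of at least 5 the first 2 counts were 19 and 0, with 17 copies without H3K27ac, 1 with H3K4me1 and 8 with H3K27me3 in fewer mice than H3K27ac. At 2000 bp, 5 copies had H3K27ac in every mouse, 5 in none, and 7 had H3K4me3 in more mice; at 500 bp, 9 had H3K4me1. With summits, 1 copy had H3K4me3 in every cold and no warm mouse. The share of all genes with that pattern was not counted for summits, so this count has no background. Counting starts within 1000 bp of a peak gave 22 shared H3K27ac sets with 40 copies, in place of 5 and 11. Without mice 7 and 10 the copies marked in every mouse were 63 for H3K4me3 and 22 for H3K27ac, and 7 had H3K4me3 in more mice.

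Leaving out 1 mouse gave 31 to 63 copies with H3K4me3 and 2 to 13 with H3K27ac in every mouse, 13 to 22 with H3K4me1 in any, 1 to 18 with H3K4me3 in more mice than H3K27ac, 13 to 22 with H3K27me3 in fewer, and 0 to 1 with H3K4me3 in every NCD and no HFD mouse. With the mouse number as replicate block the marks were paired, and both Fisher counts became 0; the smallest p this test allows is 0.0078125, which bears on calls adjusted over all genes. The cause of these shifts was not tested, beyond the fewer peaks that stricter rules keep. All limma alternatives called 0 genes. List length limits what an absent peak shows, most in mice 7 and 10 and in the H3K27me3 lists.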
